A study of Mus musculus with 8 samples.

Results

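Line A, called MEF10 in the labels, is a fibroblast line cultured from mouse embryos. Its 4 samples, of 8 in the series, were chosen by the line and treatment in their titles: 2 without tamoxifen, labelled as expressing PKM2, and 2 with tamoxifen, labelled as expressing PKM1, isoforms of pyruvate kinase. They are called PKM2 samples and PKM1 samples here. The 4 samples of line B, treated in the same way, entered only the estimate of the spread. Strain, alleles, the dose and duration of tamoxifen, passage and the separate origin of replicate samples are not given in the sources used here. The spread behind each p-value is thus that among the arrays used, which could be technical only. Every PKM1 sample had received tamoxifen and no PKM2 sample had, so exposure to the drug and the exchange of isoform cannot be told apart. Some label fields name mammary tumors, whereas the titles, the source field and the design text name embryonic fibroblasts.

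Pyruvate kinase makes pyruvate and ATP in the last step of glycolysis. The Pkm gene yields PKM1 or PKM2 by the use of alternative exons. PKM1 is constitutively active, while PKM2, the form of embryonic and many proliferating cells, is regulated by metabolites and signalling proteins. The comparison asks which transcripts differ when the same fibroblasts carry PKM1 in place of PKM2, a question tied in this field to proliferation and nucleotide synthesis. Interferon-induced genes and cell cycle genes supplied most of the list members that passed the test. In the interferon response, sensors of foreign nucleic acid lead to the making of interferon, whose receptors act through JAK kinases and STAT and IRF factors to induce antiviral effectors. In the cell cycle, E2F factors drive replication genes before DNA synthesis, and mitotic genes follow, many of them through CHR promoter elements.

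Expression was measured on Affymetrix arrays as log2 values on 19938 genes. The correlation over all genes was 0.9974 between the PKM1 samples and 0.9956 between the PKM2 samples. PKM2 sample 1 stood further from the PKM1 samples, at 0.992 and 0.9913, than PKM2 sample 2, at 0.995 and 0.9947. The fibroblast markers averaged 10.52 and 10.44 in the PKM2 samples and 10.67 and 10.69 in the PKM1 samples, with Vim, an intermediate filament gene of fibroblasts, between 13.03 and 13.14. Of these 14 markers 7 differed upward and 7 downward, with a median difference of -0.01, and 3 passed the test, all higher. Means over the marker lists of macrophages and blood (15 genes), endothelium (11 genes) and epithelium with mammary gland (17 genes) lay between 6.43 and 6.98 in the 4 samples, below the mean of all genes, 7.52 to 7.53. No marker of these lists passed the test. Bulk values cannot tell fewer cells of a type from less RNA per cell.

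Pkm itself did not pass the test. Its brighter probe set gave 11.19 and 10.99 in the PKM2 samples and 10.86 and 10.74 in the PKM1 samples. The PKM1 values were the lower ones, and the log2 fold change, PKM1 minus PKM2 throughout, was -0.29 (SE 0.21, 95% interval -0.76 to 0.19, limma adjusted p = 0.832). A second Pkm probe set gave 10.91 and 10.69 against 10.29 and 10.25, a difference of -0.54 (SE 0.28, 95% interval -1.18 to 0.11). The exons matched by the probes were not analysed here, so neither set checks the exchange of isoforms. Pklr, the pyruvate kinase gene of liver and red cells, differed by -0.09 (SE 0.10). The gene for PTBP1, a splicing factor that favours the PKM2 exon, had values of 9.79 and 9.20 without and 8.91 and 8.84 with tamoxifen. The groups of Ptbp1 did not overlap, yet its 2 PKM2 values lay far apart, and the difference of -0.62 (SE 0.43, adjusted p = 0.82) did not pass.

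Of the 19938 genes, 80 rose (0.401%) and 20 fell (0.1%) with tamoxifen at an adjusted p of 0.05 in limma. The rises were also the larger changes: 30 genes were at least 2-fold higher and 0 at least 2-fold lower. In all 100 genes the PKM1 and PKM2 values did not overlap, with a gap of at least 0.46 between the groups. Among all genes tested, both PKM1 values lay above both PKM2 values in 21.3% and below them in 26.2%. At an unadjusted p under 0.05 there were 994 higher and 620 lower genes. With 2 samples against 2, an exact permutation test of a single gene cannot go below a p of 0.333, so the calls rest on the model across all genes. Of the 80 risen genes, 66 were lower in PKM2 sample 1 than in PKM2 sample 2. Without PKM2 sample 1, 0 genes passed in limma, with 464 higher and 329 lower at an unadjusted p under 0.05. Without any other single line A sample, 2 to 6 genes passed, all of them higher. In these fits the differences of the 100 genes were 0.738 to 1.26 times the full size. Their sign could not change, because their groups did not overlap. The 4 line A samples fitted alone gave 368 higher and 175 lower genes, which held all 100.

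**Figure D1:**
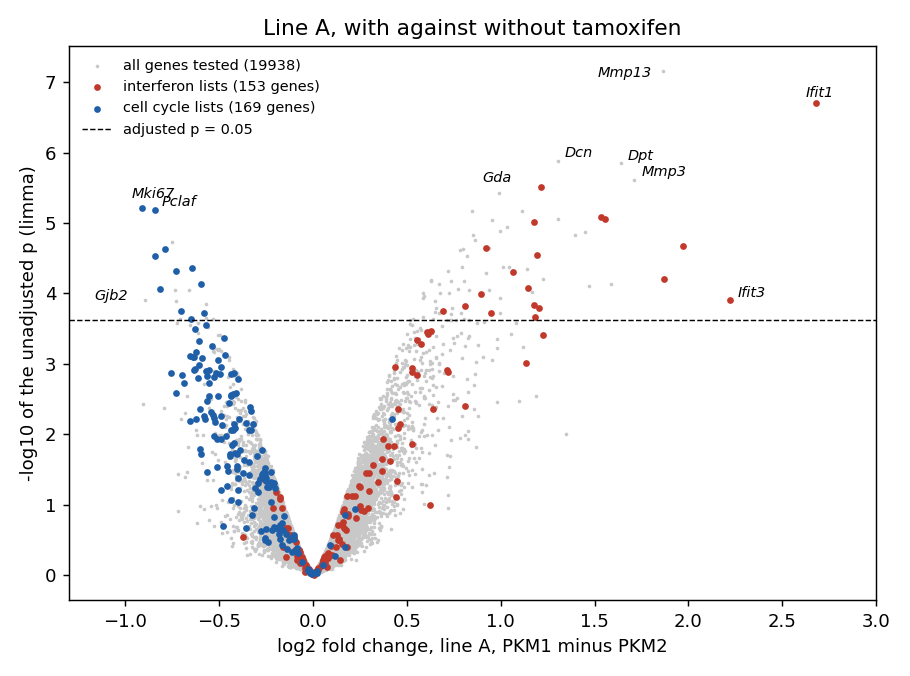
Log2 fold change in line A, PKM1 minus PKM2 samples, on the x axis against -log10 of limma's unadjusted p on the y axis for 19938 genes, each point 1 gene; the 153 measured interferon list genes are red, the 169 cell cycle list genes blue, and the dashed line marks an adjusted p of 0.05. Red points lead the right side up to Ifit1 at 2.68, and blue points crowd the left side down to Mki67 at -0.91.

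Promoter sequence shows in which of the changed genes the letters linked to these responses occur. Windows from RefSeq (GRCm38.p6) ran from 250 bases before to 50 after each gene start. The core of the interferon-stimulated response element (ISRE), the site of the STAT and IRF complex, was searched as GAAANNGAA on both strands. It occurred in 9.2% of the 15562 genes with a window, in 17 of 64 risen genes (26.6%) and in 1 of 18 fallen genes, Lrrtm3 (5.56%). The split within the risen genes followed the interferon lists: 12 of 16 risen list genes held the letters (75%), against 5 of 48 risen genes on no interferon list (10.4%). Of all interferon list genes with a window, risen or not, 43% held them. Windows of 80 bases are shown from risen interferon genes, at chr19:34640757-34640836 (+ strand), chr2:62646324-62646403 (- strand), chr11:48871421-48871500 (- strand) and chr1:174031846-174031925 (- strand). That of Mmp13 at chr9:7272330-7272409 (+ strand) is from a risen protease gene on no interferon list, and that of Lrrtm3 at chr10:64090256-64090335 (- strand) from the fallen gene. Capitals mark the matches, which may overlap.
Ifit1: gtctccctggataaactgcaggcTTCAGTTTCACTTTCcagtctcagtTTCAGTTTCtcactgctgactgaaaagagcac
Ifih1: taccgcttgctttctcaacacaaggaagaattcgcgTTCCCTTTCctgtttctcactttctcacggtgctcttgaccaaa
Irgm1: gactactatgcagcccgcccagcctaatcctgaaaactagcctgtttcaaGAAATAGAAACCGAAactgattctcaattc
Ifi205: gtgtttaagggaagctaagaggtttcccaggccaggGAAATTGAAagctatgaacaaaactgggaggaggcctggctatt
Mmp13: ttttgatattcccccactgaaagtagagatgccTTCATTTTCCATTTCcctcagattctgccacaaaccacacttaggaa
Lrrtm3: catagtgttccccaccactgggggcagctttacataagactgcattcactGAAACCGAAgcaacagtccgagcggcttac
The copies shown lay 30 and 24 bases before the start in Irgm1 and 30 bases before it in Lrrtm3, and further upstream in the others. A match describes the letters only and is not a site shown to be in use.

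The CHR letters, TTTGAA on both strands, stood in 17.3% of all genes with a window, in 7 of 18 fallen genes (38.9%) and in 13 of 64 risen genes (20.3%). Of the fallen cell cycle list genes with a window, 5 of 9 held them, and of all cell cycle list genes with a window, fallen or not, 45.2%. The CCAAT letters of NF-Y, which often pair with a CHR, occurred in 41.7% of all genes, 61.1% of fallen genes and 43.8% of risen genes, but also in 10 of 16 risen interferon list genes (62.5%). E2F letters (TTTCCCGC or TTTGGCGC, both strands) occurred in 28 of 135 cell cycle list genes (20.7%), in 2.55% of all genes and, among the fallen genes, in Pclaf. The windows of Mki67, the largest fall, at chr7:135716444-135716523 (- strand), and of the spindle motor gene Kif11 at chr19:37376302-37376381 (+ strand) show the CHR letters in capitals.
Mki67: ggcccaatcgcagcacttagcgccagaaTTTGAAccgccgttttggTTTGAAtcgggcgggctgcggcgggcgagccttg
Kif11: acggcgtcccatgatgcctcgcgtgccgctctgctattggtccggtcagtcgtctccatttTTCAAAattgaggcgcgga
Mki67 held the letters in 2 places, and Kif11 in 1, 19 bases before its start.

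Interferon-induced effectors rose, while the genes for interferons, their receptors and the signalling factors below them did not pass. Over the interferon lists, 19 of 153 measured genes rose and 0 fell, against 0.401% and 0.1% of all genes. The values separated upward in 82 of them (53.6%) and downward in 18 (11.8%), beside 21.3% and 26.2% of all genes. The median difference was 0.13 against -0.02 over all genes. Levels averaged over the 153 genes were 7.25 and 7.26 in the PKM2 samples and 7.52 and 7.59 in the PKM1 samples. The median without PKM2 sample 1 was 0.14, though 0 of the genes then passed the test. In the fit of line A alone 39 of them were higher. At an unadjusted p under 0.05 in the fit over 8 samples, 49 were higher and 1 was lower.

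The Ifit genes encode proteins that bind foreign RNA ends and block their translation. Ifit1 had values of 6.29 and 6.51 in the PKM2 samples and 8.82 and 9.34 in the PKM1 samples. This was the largest change of all, 6.42 times the PKM2 level (log2 fold change 2.68, SE 0.18, adjusted p = 0.00195). Ifit3 went from 6.34 and 7.00 to 8.53 and 9.26, 4.67-fold higher (SE 0.34 on the log2 scale, adjusted p = 0.0368). Ifit3b went from 5.23 and 6.20 to 7.49 and 7.68, 3.65-fold higher (adjusted p = 0.0283). PKM2 sample 1 was the lowest sample in each of the 3 genes, and the groups were far apart. The 2 Ifit3 genes are near copies and may share probes. Ifit2, at 8.43 and 8.72 against 9.16 and 9.41, differed by 0.72 (SE 0.15) and did not pass, adjusted p = 0.113.

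Genes of the p200 family, which encode DNA-binding proteins with members that sense foreign DNA, were the next group. Ifi203 stood at 5.97 and 6.75 without and 8.17 and 8.49 with tamoxifen, a rise of 1.97 or 3.93-fold (SE 0.24, adjusted p = 0.0167). Ifi205 stood at 6.15 and 5.78 against 7.11 and 7.21, a rise of 1.19 (SE 0.15, adjusted p = 0.0183). The values of Ifi207 were 6.91 and 7.32 against 8.20 and 8.39, a rise of 1.18 (SE 0.20, adjusted p = 0.0482). These 3 rose of the 10 measured members, the other 7 did not pass, and the median over the 10 was 0.20. Ifi213, at -0.14, lay on the other side of 0. Family members are alike in sequence, and probes shared between them were not analysed here.

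Among the sensors of RNA and DNA, Ifih1 rose and 14 of 15 measured genes did not pass. Ifih1 encodes MDA5, which detects long double-stranded RNA in the cytosol. Its values were 7.89 and 7.90 in the PKM2 samples and 8.96 and 8.96 in the PKM1 samples, with almost no spread within either group. The change was 1.07 (SE 0.14, adjusted p = 0.0245). The gene for RIG-I, Ddx58, gave 9.06 and 9.14 against 9.57 and 9.69, a difference of 0.53 (SE 0.11, adjusted p = 0.106). Eif2ak2, which encodes the RNA-activated kinase PKR, differed by 0.64 (SE 0.17, adjusted p = 0.211). In 10 of the 15 genes the PKM1 values lay above the PKM2 values, and in 2 below them, beside 21.3% and 26.2% of all genes.

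Of the 13 measured interferon and receptor genes and the 12 JAK, STAT and IRF genes, 0 passed in limma, and 0 and 2 had an unadjusted p under 0.05. Ifnb1, the interferon beta gene, had values of 6.05 and 5.93 without and 5.96 and 5.97 with tamoxifen. Those values overlapped, and the difference was -0.03 (SE 0.13, 95% interval -0.31 to 0.26). The 95% interval of Irf7, an IRF gene that interferon strongly induces in many cells, was -0.24 to 0.20 around -0.02. Stat2 and Irf9, whose products are part of the complex that binds the ISRE, stood at 8.01 and 7.94 against 8.30 and 8.51, and at 7.66 and 7.69 against 8.04 and 8.04. Their differences of 0.43 (SE 0.14, adjusted p = 0.401) and 0.37 (SE 0.13, adjusted p = 0.474) did not pass, although the groups did not overlap. Ifnar2, a chain of the type I receptor, differed by 0.19 (SE 0.12). Usp18, a protease that removes ISG15 and damps the receptor, rose from 6.90 and 7.19 to 8.11 and 8.33 (log2 fold change 1.18, SE 0.13, adjusted p = 0.0121). It was the only one of 8 feedback and ISG15 genes measured that passed.

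Further effectors rose in several families. Oasl2, a relative of the enzymes that make oligoadenylate messengers, rose from 6.70 and 6.78 to 7.87 and 8.02, and was 1 of 11 in its family to pass (log2 fold change 1.21, SE 0.19, adjusted p = 0.0422). Among 12 Trim genes, which encode ubiquitin ligases with antiviral members, Trim30d (1.21, SE 0.12), Trim12c (1.18, SE 0.18) and Trim12a (0.81, SE 0.13) rose, and the family median was 0.44. Trim30a differed by 1.13 but with a larger error (SE 0.23, adjusted p = 0.0972). The Trim genes named lie near each other and are similar in sequence, so their probes may not be separate. Irgm1, an immunity-related GTPase of vacuole defence, rose from 8.70 and 8.78 to 9.58 and 9.69 (0.90, SE 0.13, adjusted p = 0.0327). It was the only one of 12 GTPases to pass. The PKM1 values lay above the PKM2 values in 9 of the 12 (75%), beside 21.3% of all genes. Iigp1, at 5.36 and 5.43 against 6.26 and 6.98, showed 1.22 (SE 0.22, adjusted p = 0.0611), its PKM1 samples lying far apart.

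Of 38 other antiviral effectors, 6 rose and 25 separated upward, beside 0.401% and 21.3% of all genes. Xaf1, an interferon-induced promoter of apoptosis, stood at 7.20 and 7.52 against 8.82 and 9.02, 2.94-fold higher (adjusted p = 0.0119). Rtp4, which encodes a chaperone-like protein of the interferon response, stood at 7.65 and 7.80 against 9.08 and 9.43, 2.89-fold higher (adjusted p = 0.0119). Phf11d (1.14, SE 0.17), Parp9 (0.95, SE 0.15), the helicase gene Ddx60 (0.92, SE 0.11) and Sp100, a nuclear body component (0.69, SE 0.11), were the remaining 4. Bst2, the gene for the virus-tethering protein tetherin, differed by 0.55 (SE 0.10, adjusted p = 0.0656). No gene of antigen presentation passed, of 17 measured, with a median of -0.01 and 2 genes at an unadjusted p under 0.05. Of these 17, 5 separated upward (29.4%) and 4 downward (23.5%), near the 21.3% and 26.2% of all genes. Beside these rises, the 15 macrophage and blood markers averaged 6.57 and 6.43 in the PKM2 samples and 6.63 and 6.58 in the PKM1 samples, with a median difference of 0.05. Cd53, a leukocyte tetraspanin gene, at 7.02 and 6.72 against 7.72 and 7.75, and Lyz2, the lysozyme gene of myeloid cells, at 6.97 and 7.23 against 7.97 and 7.77, had the largest differences among them. Neither passed, with adjusted p of 0.0954 and 0.178. Ptprc, which encodes the CD45 phosphatase of nearly all leukocytes, stood at 6.39 and 6.14 against 6.38 and 6.32, and these values overlapped. At an unadjusted p under 0.05, 3 of the 15 markers were higher and 0 lower. Any part of such cells in the rises was not tested.

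**Figure D2:**
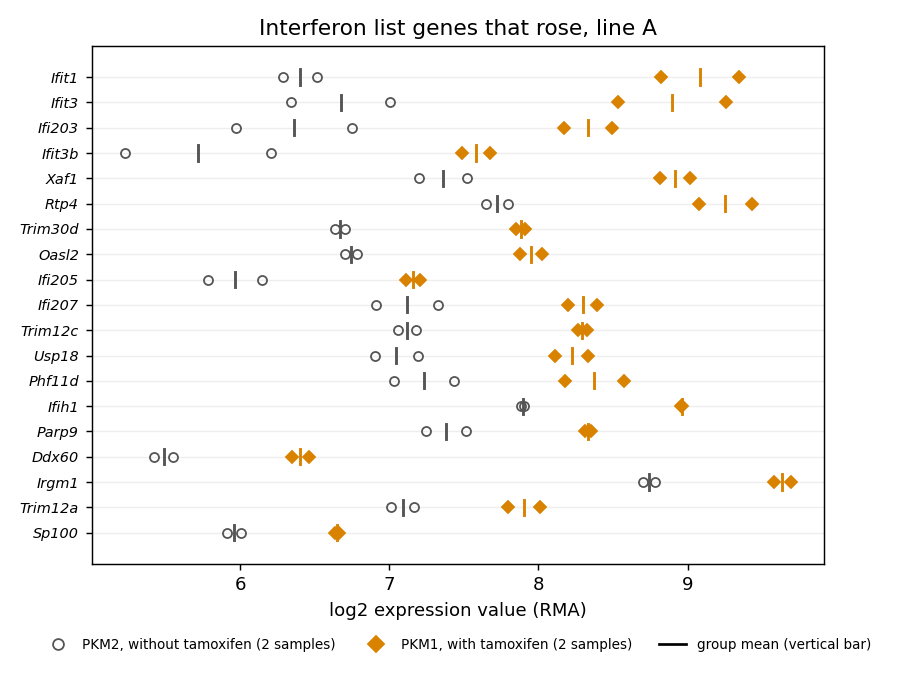
Log2 expression values on the x axis of the 19 interferon list genes that rose in line A, 1 gene a row; open circles are the 2 PKM2 samples, filled diamonds the 2 PKM1 samples and vertical bars the group means. No circle reaches the diamonds of its row, and the distance between groups is widest for Ifit1, with means 2.68 apart.

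Cell cycle genes made up 11 of the 20 falls. Of 169 measured cell cycle list genes, 11 fell (6.51%) and 0 rose, beside 0.1% and 0.401% of all genes. The values separated downward in 146 (86.4%) and upward in 5 (2.96%), beside 26.2% and 21.3% of all genes. The median was -0.41. Their mean levels were 8.62 and 8.70 in the PKM2 samples and 8.29 and 8.27 in the PKM1 samples. At an unadjusted p under 0.05, 111 of the 169 were lower and 1 was higher. Without PKM2 sample 1 the median was -0.44, and in the fit of line A alone 73 of these genes were lower.

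Mki67 encodes Ki-67, a protein of the surface of mitotic chromosomes used as a mark of proliferating cells. Its values were 10.24 and 10.23 in the PKM2 samples and 9.30 and 9.35 in the PKM1 samples, so that both groups were tight. It was 1.88-fold lower with tamoxifen (log2 fold change -0.91, SE 0.09, adjusted p = 0.0119). Kif11, the motor that pushes spindle poles apart, went from 10.18 and 10.24 to 9.50 and 9.51 (-0.70, SE 0.11, adjusted p = 0.0454). Ect2, an exchange factor of the cleavage furrow, went from 9.91 and 10.01 to 9.39 and 9.23 (-0.65, SE 0.11). Anln, the actin-binding anillin of the same furrow, went from 10.84 and 10.80 to 10.26 and 10.23 (-0.58, SE 0.09). These 4 fell among 75 genes of mitosis and cytokinesis (5.33%, beside 0.1% of all genes). Of the 75, 73 separated downward (97.3%, beside 26.2% of all genes), and the median was -0.50. The kinesin gene Kif23 at -0.63 (adjusted p = 0.0569) and the checkpoint kinase gene Ttk at -0.61 (adjusted p = 0.0669) lay just beyond the threshold.

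In DNA replication, 5 of 45 genes fell (11.1%) and 36 separated downward (80%), beside 0.1% and 26.2% of all genes. Pclaf, whose product binds the sliding clamp PCNA, went from 10.19 and 10.29 to 9.40 and 9.38 (-0.84, SE 0.09, adjusted p = 0.0119). Its other probe set gave -0.88 (SE 0.11). Ticrr, needed to fire replication origins, went from 8.21 and 8.26 to 7.44 and 7.35 (-0.84, SE 0.11, adjusted p = 0.0183). Wdhd1, which ties polymerase alpha to the replication helicase, went from 9.90 and 10.01 to 9.23 and 9.10 (-0.79, SE 0.10, adjusted p = 0.0167). Clspn, the claspin of fork checkpoint signalling, fell by 0.73 (SE 0.10) and Pole, the catalytic subunit of leading-strand polymerase, by 0.64 (SE 0.09). Initiation and priming genes such as Cdc6 (-0.63, SE 0.13, adjusted p = 0.0878) and Prim1 (-0.64, SE 0.14, adjusted p = 0.111) had similar differences with larger errors.

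Of 27 genes for cyclins, cell cycle kinases and E2F factors, 2 fell (7.41%, beside 0.1% of all genes), both for cyclins that peak late in the cycle. Ccna2 stood at 10.57 and 10.51 without and 9.70 and 9.75 with tamoxifen (-0.81, SE 0.12, adjusted p = 0.0311). Ccnb2 stood at 10.55 and 10.52 against 9.93 and 9.94 (-0.60, SE 0.09, adjusted p = 0.0293). Recombination and Fanconi repair genes, active in cells that copy DNA, had 0 of 22 past the threshold in limma. Of the 22, 14 were lower at an unadjusted p under 0.05 and 20 separated downward (90.9%), with a median of -0.32. Of all 19938 genes, 620 were lower and 994 higher at that unadjusted p, and 26.2% separated downward. Among 10 cyclin-dependent kinase inhibitors and pocket protein genes 0 passed in limma, with 1 higher and 3 lower at an unadjusted p under 0.05. Cdkn2a, the INK4A and ARF gene of senescent cells, stood at 7.10 and 7.09 against 7.05 and 7.11, a difference of -0.01 (SE 0.09, 95% interval -0.22 to 0.19). Rb1 differed by 0.47 (SE 0.17) and Cdkn2c by -0.43 (SE 0.11). Cdkn1a was not analysed here. Of 28 p53 target genes 0 passed in limma, while 14 were higher and 1 lower at an unadjusted p under 0.05, with a median of 0.24. The values separated upward in 16 (57.1%) and downward in 6 (21.4%), beside 21.3% and 26.2% of all genes. Examples of those separated upward were the apoptosis gene Pmaip1, at 8.49 and 8.62 against 9.04 and 9.10 (0.51, SE 0.10, adjusted p = 0.0791), and Trp53inp1 (0.60, SE 0.13, adjusted p = 0.11).

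Histone genes went both ways. The variant gene H2az1 fell from 12.09 and 12.17 to 11.56 and 11.56 (-0.57, SE 0.09, adjusted p = 0.0398). Its other probe set gave -0.57 with a larger error (SE 0.125) and did not pass in limma over every probe set, adjusted p = 0.104. The linker histone gene H1f2 rose from 9.95 and 10.02 to 10.75 and 10.69 (0.73, SE 0.10, adjusted p = 0.0283). H2bc4, at 10.90 and 11.08 against 11.71 and 11.72, differed by 0.73 in the same direction (SE 0.14, adjusted p = 0.0777), whereas H4c4 and H2ac4 differed by -0.46 and -0.46. Over 26 measured histone genes 7 separated upward (26.9%) and 12 downward (46.2%), beside 21.3% and 26.2% of all genes. Histone genes are near copies of each other, and probes shared among them were not analysed here.

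**Figure D3:**
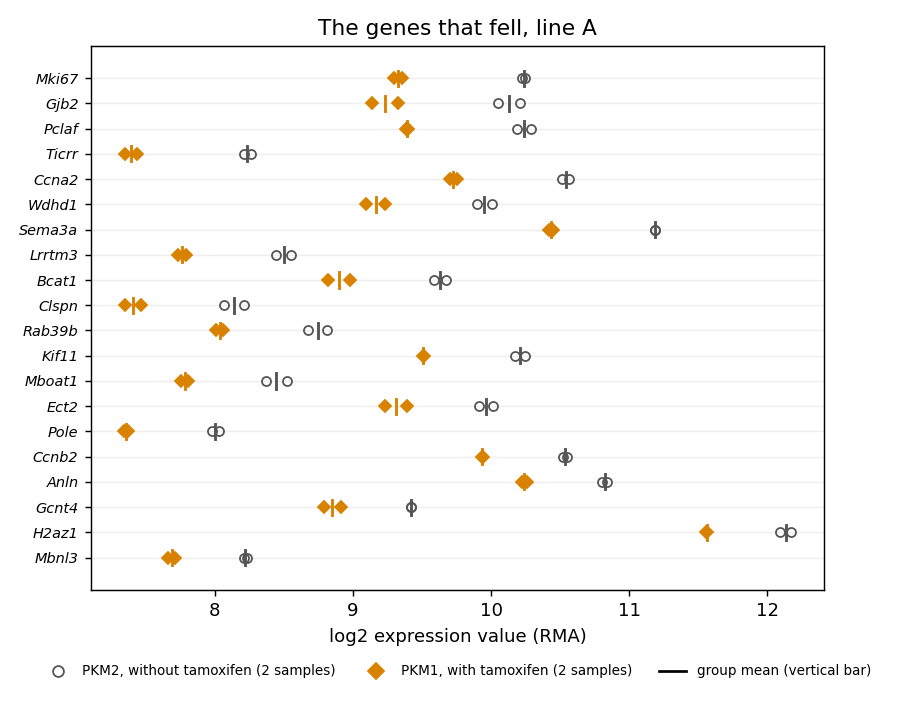
Log2 expression values on the x axis of the 20 genes that fell in line A, 1 gene a row; open circles are the 2 PKM2 samples, filled diamonds the 2 PKM1 samples and vertical bars the group means. All diamonds lie left of the circles of their row; the widest steps are those of Mki67, with a difference of -0.91, and Gjb2, with -0.90.

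Some matrix protease genes rose. Mmp13, a collagenase of fibrillar collagen, had values of 8.41 and 8.52 in the PKM2 samples and 10.23 and 10.42 in the PKM1 samples. That is a rise of 1.86 or 3.64-fold (SE 0.11, adjusted p = 0.00139). Mmp3, the stromelysin that cleaves proteoglycans and other proteases, went from 7.16 and 7.63 to 9.02 and 9.19, 3.27-fold higher (SE 0.16 on the log2 scale, adjusted p = 0.00964). These 2 rose among 25 metalloproteinase and inhibitor genes (8%, beside 0.401% of all genes), and 0 fell. The list median was 0.01. Of the 25, 9 separated upward (36%) and 6 downward (24%), beside 21.3% and 26.2% of all genes. Mmp10 at 0.32 (SE 0.11) and Mmp9 at -0.23 (SE 0.10) did not pass.

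Genes for some proteins that bind collagen fibrils rose as well. Dpt, the gene for dermatopontin and on no list, stood at 7.45 and 7.71 against 9.16 and 9.28, 3.11-fold higher (adjusted p = 0.00704). Lum and Dcn encode lumican and decorin, small leucine-rich proteoglycans that regulate fibril width. Lum went from 7.95 and 8.31 to 9.50 and 9.93 (1.59, SE 0.23, adjusted p = 0.0293), and Dcn from 9.95 and 10.05 to 11.22 and 11.38 (1.30, SE 0.11, adjusted p = 0.00704). They were the 2 of 12 proteoglycans of the class that rose (16.7%, beside 0.401% of all genes). Ogn (-0.29, SE 0.16) and Omd (-0.42) differed in the other direction. The collagen list, which also held the lysyl oxidase genes Lox and Loxl1, had 0 of 28 past the threshold in limma and 4 lower at an unadjusted p under 0.05. Of the 28, 17 separated downward (60.7%, beside 26.2% of all genes), with a median of -0.14. That median was -0.05 without PKM2 sample 1. Col1a1, the main collagen gene of fibroblasts, stood at 10.40 and 9.75 in the PKM2 samples and 9.44 and 9.27 in the PKM1 samples (-0.72, SE 0.42, adjusted p = 0.78). Its PKM2 samples differed from each other more than PKM2 sample 2 did from the PKM1 samples. Fap, a surface protease of activated fibroblasts, rose from 7.64 and 7.84 to 8.72 and 8.79 (1.01, SE 0.13, adjusted p = 0.024). Dcn, Lum and Fap are also on the fibroblast marker list, where 3 of 14 rose (21.4%) and 0 fell, beside 0.401% and 0.1% of all genes. Over that list 7 genes differed upward and 7 downward, with a median of -0.01.

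Growth factor and chemokine genes changed in part. Igfbp3, which encodes the main carrier of insulin-like growth factors, rose from 9.19 and 9.35 to 10.49 and 10.66, a rise of 1.31 or 2.47-fold (SE 0.14, adjusted p = 0.0119). Igf1 differed by 0.57 (SE 0.10, adjusted p = 0.0569). Of 24 chemokine genes, 4 rose (16.7%) and 0 fell, beside 0.401% and 0.1% of all genes. The values separated upward in 11 (45.8%) and downward in 7 (29.2%), beside 21.3% and 26.2% of all genes. The monocyte attractants Ccl2, Ccl7 and Ccl8 lie in a cluster on chromosome 11. Ccl2 went from 10.31 and 10.49 to 11.01 and 11.09 (0.65, SE 0.10), Ccl7 from 9.73 and 9.94 to 10.46 and 10.51 (0.65, SE 0.10), and Ccl8 from 5.73 and 6.19 to 6.95 and 6.96 (0.99, SE 0.16). Cxcl14 rose from 9.55 and 9.53 to 10.10 and 10.16 (0.59, SE 0.09). Their adjusted p lay between 0.0332 and 0.0454. Cxcl10, an interferon-induced chemokine, was at 6.99 and 6.85 against 7.77 and 8.27, and its difference of 1.10 (SE 0.28, adjusted p = 0.187) did not pass. Cxcl3, a neutrophil attractant, differed by -0.61 (SE 0.10, adjusted p = 0.0505), just beyond the threshold. Il33, an alarmin of stromal cells, was the 1 of 37 cytokine and growth factor genes that passed, at 5.89 and 5.92 against 6.67 and 6.75 (0.81, SE 0.11).

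Among complement genes, C1s1, a serine protease of the first complement component, went from 6.93 and 7.07 to 7.72 and 7.85 (0.78, SE 0.10, adjusted p = 0.0167) and was the 1 of 19 that passed. On no list, and named because they passed, the gene for ceruloplasmin, Cp, rose by 1.04 (SE 0.14), that for apolipoprotein D, Apod, by 1.17 (SE 0.17), and the protease inhibitor gene Serpina3n by 0.73 (SE 0.12). Cd55, which protects cells from complement, was at 9.49 and 9.72 against 10.58 and 10.74 and narrowly missed, with 1.05 (SE 0.19, adjusted p = 0.0606).

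**Figure D4:**
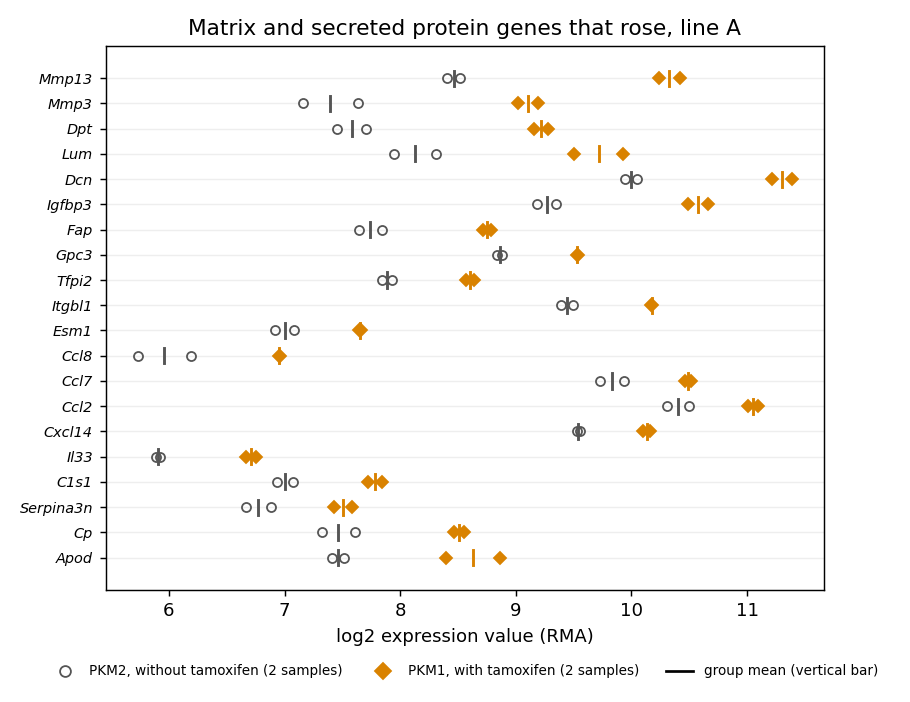
Log2 expression values on the x axis of 20 genes for matrix and secreted proteins, picked among the genes that rose in line A and grouped by kind, 1 gene a row; open circles are the 2 PKM2 samples, filled diamonds the 2 PKM1 samples and vertical bars the group means. The groups are separate in each row, by 1.86 between the means of Mmp13 and by 0.59 between those of Cxcl14.

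Receptors and contact proteins gave single genes rather than families. Agtr2, the type 2 angiotensin receptor gene of embryonic mesenchyme, rose from 7.67 and 7.89 to 9.06 and 9.39, 2.73-fold higher (adjusted p = 0.0139). Gjb2, the gene for the gap junction protein connexin 26, fell from 10.05 and 10.21 to 9.33 and 9.14, 1.86-fold lower (adjusted p = 0.0368). Of 8 connexin genes 5 separated downward (62.5%, beside 26.2% of all genes). Gja1, the main connexin gene of fibroblasts, differed by -0.09 (SE 0.18). Semaphorins, guidance cues for axons and vessels, moved in both directions. Sema3a went from 11.19 and 11.18 to 10.45 and 10.42 (-0.75, SE 0.09, adjusted p = 0.0159), and Sema5a from 7.44 and 7.52 to 8.12 and 8.19 (0.67, SE 0.10, adjusted p = 0.032). Lifr, the receptor gene for leukaemia inhibitory factor, rose by 0.80 (SE 0.13), and Havcr2, which encodes the immune receptor TIM-3, by 0.83 (SE 0.12).

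In central metabolism, 0 genes passed in limma on the lists of glycolysis (22 measured), the pentose phosphate pathway (7), pyruvate entry and the TCA cycle (33), oxidative phosphorylation (34), purine synthesis (15) and pyrimidine and deoxynucleotide synthesis (21). At an unadjusted p under 0.05, glycolysis had 2 higher and 1 lower gene, the TCA list 3 higher and oxidative phosphorylation 7 higher. Purine synthesis had 1 higher, and pyrimidine synthesis 1 higher and 7 lower. Of all 19938 genes, 994 were higher and 620 lower at that unadjusted p in limma. Oxidative phosphorylation genes separated upward in 55.9% and downward in 8.82%, beside 21.3% and 26.2% of all genes. These shares were 39.4% and 12.1% on the TCA list, and 27.3% and 36.4% on the glycolysis list. Ldha, which turns pyruvate into lactate, stood at 12.42 and 12.33 against 12.17 and 12.10 (-0.24, SE 0.30). The Ldhb subunit gene stood at 8.26 and 8.50 against 8.89 and 8.90 (0.51, SE 0.13, adjusted p = 0.187). The purine list had a median of -0.08, with Prps2, a supplier of activated ribose, at 9.50 and 9.62 against a PKM1 mean of 10.01 (0.45, SE 0.11). On the pyrimidine list 13 genes separated downward (61.9%) and 4 upward (19%), beside 26.2% and 21.3% of all genes. The median was -0.19, and the S phase genes Rrm2 (-0.30, SE 0.11) and Tyms (-0.30, SE 0.11) were among those separated downward. Oxidative phosphorylation genes averaged 10.08 and 10.30 in the PKM2 samples and 10.38 and 10.36 in the PKM1 samples. The low value was that of PKM2 sample 1, without which their median went from 0.17 to 0.05.

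Lists of biosynthetic supply leaned lower, although 0 of their genes passed in limma. For comparison, 26.2% of all genes tested separated downward and 21.3% upward. At an unadjusted p under 0.05 in limma, 620 of the 19938 genes were lower and 994 higher. Serine and one-carbon genes had 9 of 15 separated downward, 6 lower at an unadjusted p under 0.05, and a median of -0.24. Aldh1l2, a mitochondrial folate enzyme gene, stood at 9.59 and 9.57 against 8.97 and 8.83 (-0.68, SE 0.18, adjusted p = 0.229). On the list of ATF4 targets and amino acid supply, 18 of 32 separated downward and 7 were lower at an unadjusted p under 0.05, with a median of -0.17. Slc7a5, a carrier of large neutral amino acids, stood at 10.03 and 9.66 against 9.06 and 9.04 (-0.79, SE 0.21, adjusted p = 0.207). Bcat1, which starts the breakdown of branched-chain amino acids and is on none of these lists, fell from 9.67 and 9.59 to 8.98 and 8.82 (-0.73, SE 0.11, adjusted p = 0.0371). Cholesterol synthesis genes had 16 of 21 separated downward, 7 lower at an unadjusted p under 0.05 and a median of -0.21, with Insig1 at -0.51 (SE 0.10, adjusted p = 0.0777). Fatty acid synthesis genes had 10 of 14 separated downward, 2 at an unadjusted p under 0.05 and a median of -0.18, with the elongase gene Elovl6 at -0.61 (SE 0.11, adjusted p = 0.0604). Lysosomal genes leaned higher, with 0 of 33 past the threshold, 24 separated upward, 9 higher at an unadjusted p under 0.05 and means of 9.47 and 9.39 against 9.68 and 9.61. Their median was 0.23, and 0.11 without PKM2 sample 2. The lysosomal hydrolase genes Gla (0.60, SE 0.12, adjusted p = 0.0798) and Hexa (0.59, SE 0.14, adjusted p = 0.174) were examples. Of 15 estrogen receptor and target genes, included because tamoxifen binds these receptors, 0 passed, with 1 higher and 1 lower at an unadjusted p under 0.05, and Esr1 differed by -0.26 (SE 0.15). The unfolded protein response (21 genes) and the immediate early genes (21) had 0 at either threshold but also leaned lower. Of the unfolded protein response genes 14 separated downward and 1 upward, with a median of -0.12. Of the immediate early genes 11 separated downward and 0 upward, with a median of -0.11. The HIF1 targets (18) had 0 past the adjusted and 1 higher at the unadjusted threshold.

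**Figure D5:**
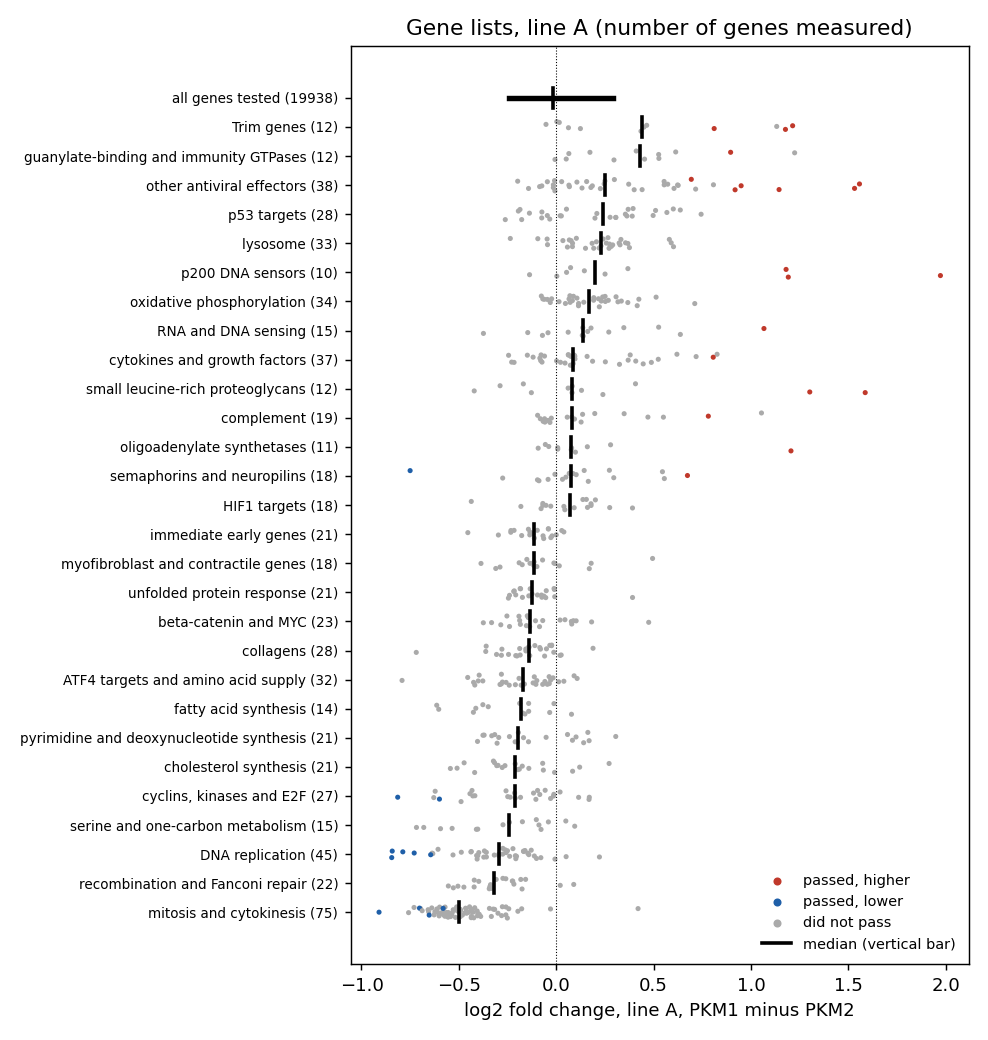
Log2 fold change in line A, PKM1 minus PKM2 samples, on the x axis for the 28 gene lists with the highest and lowest medians among lists of over 9 measured genes, each point 1 gene and each vertical bar the median of its list; red and blue points passed the test, and the horizontal bar at the top runs from the 5th to the 95th percentile of all 19938 genes. Mitosis and cytokinesis genes centre on -0.50 with 1 point right of 0, while the Trim genes centre on 0.44; the Ifit family, with 5 genes and a median of 1.87, is not drawn.

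Of the 80 risen genes, 46 were on no list, Dpt, Cp, Apod and Serpina3n among them. After Dpt, the largest changes among the 46 were those of Mcpt8, a mast cell and basophil protease gene at 8.25 and 8.87 against 10.07 and 9.99 (1.47, SE 0.21), and Upk1b, a tetraspanin gene of the urinary tract lining at 7.96 and 8.33 against 9.58 and 9.49 (1.39, SE 0.16). Gda, which encodes guanine deaminase, an enzyme of purine breakdown, went from 7.89 and 7.90 to 8.87 and 8.90 (0.99, SE 0.10, adjusted p = 0.0108). The imprinted genes Peg3 (0.59, SE 0.09) and Zim1 (0.63, SE 0.09), neighbours on chromosome 7, both rose. The precursors of 2 microRNAs of the miR-181 family, encoded side by side on chromosome 1, were also among the risen: Mir181a-1 went from 4.93 and 5.06 to 5.93 and 5.94 (0.94, SE 0.12), and Mir181b-1 from 6.85 and 7.13 to 7.76 and 7.68 (0.73, SE 0.12). Their mature arms from RefSeq (GRCm38.p6), at chr1:137966468-137966490 and chr1:137966650-137966673 (+ strand), share the seed, bases 2 to 8, in capitals.
miR-181a-5p: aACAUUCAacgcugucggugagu
miR-181b-5p: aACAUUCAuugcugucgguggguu
The array values are those of the precursor probe sets, and mature microRNA was not measured here. All values of Mir181a-1 were low, below the mean of all genes, 7.52 to 7.53.

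Some of the changed genes lay near each other in the genome. Of the 100 genes that passed, 26 (26%) had another within 500 kb, while 955 of the other genes among the 19855 with a position (4.83%) lay that near to a gene that passed. All 26 were risen genes. The runs were Ifi207, Ifi203 and Ifi205 on chromosome 1, Fap with Ifih1 on chromosome 2, Zim1 with Peg3 and the 3 Trim genes Trim12a, Trim12c and Trim30d on chromosome 7, Mmp13 with Mmp3 on chromosome 9 and Dcn with Lum on chromosome 10. The others were Ccl2, Ccl7 and Ccl8 on chromosome 11, Mcpt1 with Mcpt8 on chromosome 14, Pla2g7 with Enpp5 on chromosome 17, the 3 Ifit genes on chromosome 19 and the 2 miR-181 precursors. Most runs hold paralogs, and probes shared between paralogs were not analysed here. By contrast Fap, a protease gene, and Ifih1, an RNA sensor gene, are unrelated neighbours, as are Pla2g7 and Enpp5.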

How the data were processed

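RNA of line A (4 samples) and line B (4 samples) was hybridised to Affymetrix arrays. Per the labels, the authors normalized the intensities by RMA in Affymetrix Expression Console, which corrects background, quantile-normalizes the arrays and summarises each probe set as a log2 value; the deposited log2 values ran from 2.61 to 14.12 and were not normalized again. RMA compresses differences of dim probe sets. Of 35556 probe sets, 21789 had 1 gene symbol in GEO's platform annotation, 1621 had several and 12146 are unnamed here. The gene IDs of 21698 matched the RefSeq table (GRCm38.p6), which changed 0 symbols. For the 999 genes with more than 1 probe set the brightest over 8 samples was used, giving 19938 genes. No gene was named from a probe set with several symbols, so Cdkn1a was not analysed here.

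The test was limma 3.58.1 in R 4.3.3 (lmFit, eBayes) on 4 group means over 8 samples (4 residual degrees of freedom). The contrast was line A PKM1 minus PKM2, and p-values were adjusted over 19938 genes by Benjamini-Hochberg, with 0.05 as threshold. It was tested on simulated data. Groups came from the titles, and replicates were numbered by accession order, which pairs no samples. The 53 gene lists, 1035 measured genes in all, and the members described were chosen with earlier results of these data known; lists are described by counts and medians, with no test. Named genes are those that passed and up to 4 further members of a list with the smallest p, with Pkm, Pklr, Ptbp1, Irf7, Ifnb1, Cdkn2a, Esr1 and Ldha always; Vim, Gja1, Ptprc and the microRNA genes were named after their values were seen. "Separated" means that both PKM1 values lay on the same side of both PKM2 values. Alternatives were other scalings, a filter on dim genes, other variance models, array weights, other uses of probe sets, the line A samples alone, each sample left out and limma's treat.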

Additional observations from a re-analysis of the deposited data

How the results depend on the processing

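Array weights gave 363 higher and 162 lower genes, every probe set on its own 153 higher, and the 4 line A samples alone 368 higher and 175 lower, against 80 and 20. Quantile normalization again gave 31 lower genes, and a single line B PKM1 sample left out 32. Limma's treat against a fold of 1.2 gave 9 higher and 0 lower genes. Leaving out line A samples in turn gave 0 to 6 higher and 0 to 0 lower genes. The remaining counts, 63 to 111 higher and 16 to 30 lower, were within 1.5 times. Ifnb1 ranged from -0.085 to 0.0341 with line A samples left out in turn, positive without PKM2 sample 1. Cdkn2a turned positive at a common median (0.0036) and after quantile normalization again (0.0066), and ranged from -0.0437 to 0.0152 with line A samples left out, positive without PKM1 sample 1. Ptprc ranged from -0.0401 to 0.2121 in the same way, negative without PKM2 sample 2. No paired analysis was possible because the labels number no replicates. The median of all genes moved by under 0.02 between scalings. The number of arrays, 2 a group, limits the precision, and the cause of these changes was not tested.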
